A study of Mus musculus with 22 samples.

Results

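The comparison described here is that of mice with and without a valosin-containing protein (VCP) transgene, in the left ventricle after 5 weeks of pressure overload. It sets 3 libraries labelled VCP TG against 4 libraries labelled WT (wild type), 7 of the 22 libraries of the series, and reads 7111 of the 30735 genes of the deposited table: the named protein-coding genes that reached 5 TPM (transcripts per 1000000) in at least 3 of the 7 libraries. All animals were FVB mice aged 3 to 5 months. Every heart of both groups had undergone TAC (transverse aortic constriction), in which a ligature narrows the aorta and the left ventricle pumps against a higher pressure, and was taken 5 weeks later. RNA from whole left ventricular tissue was sequenced, so that fewer cells of a type and less RNA per cell cannot be told apart in any value given here. The rest of the series holds WT and VCP TG hearts 2 weeks after a sham operation (4 and 4) and 2 weeks after TAC (4 and 3). No sham group at 5 weeks is among the 22 libraries. A genotype difference at 5 weeks TAC therefore cannot be told apart from one present without overload at that time. The promoter that drives the transgene, the species of the VCP sequence in it and the number of founder lines are not given in the sources used here. The labels do not say that each library came from a separate animal, so the p-values measure the spread between libraries.

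VCP, also called p97, is an abundant hexameric ATPase that uses ATP to pull ubiquitin-tagged proteins out of membranes and complexes and hands them to the proteasome. It works with adaptor proteins in the removal of misfolded proteins from the endoplasmic reticulum, in autophagy and in the turnover of damaged mitochondria. In the heart, pressure overload is known for driving growth of the muscle cells, return of fetal genes, fibrosis and a shift in fuel use, the processes by which the genes below are ordered.

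The transgene was looked for first, through the endogenous gene Vcp and the processed pseudogene Vcp-rs. Vcp lies on the minus strand of chromosome 4 (chr4:42979963-43000507, mouse build GRCm38, GENCODE M21), and Vcp-rs lies on the minus strand of chromosome X (chrX:104345829-104348234). Vcp-rs is a copy of the Vcp coding sequence without introns. In the GENCODE transcripts, Vcp-rs lacked 15 bases of the Vcp coding sequence, which lie between positions 1539 and 1758. Of the 2406 aligned bases, 2398 were the same (99.67% identity), and the longest identical run was 794 bases. Reads from the one can therefore be assigned to the other. The sequences below show why the pair is hard to tell apart: the 120 bases that hold the most of the 8 substitutions, with the 3 differing bases in capitals. Counted from the A of the start codon, they are T1485C, T1488C and C1539T, with the Vcp base first.
Vcp: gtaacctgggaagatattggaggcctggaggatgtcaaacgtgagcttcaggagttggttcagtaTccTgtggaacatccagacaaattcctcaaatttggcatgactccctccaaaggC
Vcp-rs: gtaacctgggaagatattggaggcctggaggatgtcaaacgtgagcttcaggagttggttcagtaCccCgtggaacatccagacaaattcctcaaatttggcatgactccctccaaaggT
The stretch shown for Vcp-rs lies at chrX:104346696-104346815.

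Vcp was listed at 62.2, 123, 107 and 47.7 TPM in WT 1 to 4 and 118, 108 and 39.1 TPM in VCP TG 1 to 3. The means were 84.9 ± 35.8 TPM (SD, n = 4) in WT and 88.4 ± 43.0 TPM (SD, n = 3) in VCP TG, and the log2 difference of TPM + 1 was 0.0067 ± 0.45 (± standard error, limma adjusted p = 0.998). The labelled groups overlapped completely: the library labelled WT 2 held the highest level of all 7 and the library labelled VCP TG 3 the lowest. Vcp-rs divided the libraries more sharply, with 0.212, 2.495, 105 and 0.0694 TPM in WT 1 to 4 and 92.7, 95.3 and 0.0562 TPM in VCP TG 1 to 3. In this measure the library labelled WT 3 lay with VCP TG 1 and 2, and the library labelled VCP TG 3 lay with WT 1 and 4. In the 2-week table Vcp-rs stood at 0.234 TPM or less in the 4 WT sham libraries and at 83.8, 73.6 and 119.5 TPM in VCP TG 1 to 3 after TAC. There too, some levels went against the labels: 47.4 TPM in WT 1 after TAC, and 0.325 and 3.48 TPM in VCP TG 1 and 4 after sham. The labels were followed in every comparison, and each direction below is between libraries as labelled. Values without WT 3 and VCP TG 3 are given beside some single genes only. The log2 differences of others moved as well, such as Postn (from -1.33 to -0.97), Myc (from -1.08 to -1.48) and Vwa3a (from 1.15 to 1.51). The plot of gene lists shows the median of each list drawn without WT 3 and VCP TG 3. Without both, the log2 difference of Vcp was 0.65, and without WT 2, which was high in Vcp and at 2.495 TPM in Vcp-rs, as well, it was 1.04.

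**Figure D1:**
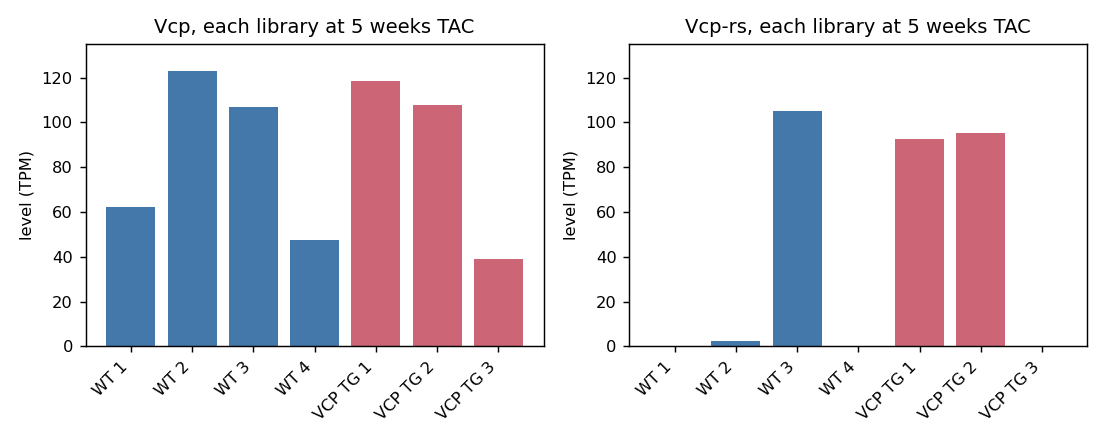
Levels of Vcp (left) and the pseudogene Vcp-rs (right) in TPM, 1 bar per library at 5 weeks TAC, WT in blue and VCP TG in red, both axes from 0. The bars for Vcp-rs stand at 92.7 TPM or more in WT 3, VCP TG 1 and VCP TG 2 and at 2.495 TPM or less in the other 4 libraries.

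Several features of the libraries moved with the groups or set 1 library apart. The 13 mitochondrially encoded mRNAs took 53.03 to 55.6% of all TPM in WT and 47.6 to 50.8% in VCP TG, with no overlap (exact permutation test, two-sided p = 0.0571, the smallest that 4 against 3 libraries can give; 0.171 after Benjamini-Hochberg adjustment over 3 such measures). The adjustment also covered the number of genes at 1 TPM or more and the mean level of olfactory and vomeronasal receptor genes. The number of genes ranged from 13047 to 14988. The receptor gene level was 0.130 to 0.343 TPM in WT and 0.173 to 0.4996 TPM in VCP TG. Nuclear protein-coding genes took 28.1 to 36.8% of all TPM in WT and 31.6 to 39.9% in VCP TG. An identifier without a GENCODE M21 name took 5.76 to 13.9% in WT and 6.17 to 14.1% in VCP TG. The library labelled WT 4 differed from the other 6 in the Y-linked genes Ddx3y (0.192 TPM against 11.1 to 18.8 TPM) and Eif2s3y (1.43 against 13.4 to 23.5 TPM). The Y-linked genes Uty and Kdm5d were lowest there but present, at 3.66 against 15.4 to 22.5 TPM and 6.98 against 10.8 to 19.97 TPM. Of the X-linked genes, Kdm6a (10.5 against 5.56 to 7.17 TPM), Kdm5c (8.78 against 6.33 to 6.74 TPM) and Eif2s3x (17.2 against 9.18 to 13.5 TPM) were highest in WT 4. Ddx3x was not (55.9 against 37.8 to 56.4 TPM). WT 4 also stood more than 1 log2 unit below all other libraries in 46 genes of 5 TPM or more and above all of them in 17, where VCP TG 3 was below in 16 and above in 1. Examples, chosen after their values were seen, are Hspb8 (0.333 against 95.4 to 116 TPM), a small heat shock protein of muscle, and Rps2 (140.1 against 9.21 to 20.4 TPM). The tissue label held: the 12 ventricular muscle markers summed to 28187 to 35527 TPM in WT and 25704 to 31311 TPM in VCP TG, led by Tnnt2, Myl2, Myh6 and Mb. Markers of atrial tissue varied in both groups, with Myl7 at 1.07, 33.1, 104 and 4.16 against 33.1, 37.2 and 0.671 TPM in WT 1 to 4 and VCP TG 1 to 3.

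No named protein-coding gene of 5 TPM or more passed the test between the labelled groups. Of the 7111 genes, 0 (0%) had a limma adjusted p under 0.05, where 1 of all 13986 genes tested (0.00715%) did. At an unadjusted p under 0.05, 156 (2.19%) were higher and 148 (2.08%) lower in VCP TG. In 222 genes (3.12%) every VCP TG library lay above every WT library, and in 160 (2.25%) every one lay below. Of all 13986 genes tested, 475 (3.4%) and 243 (1.74%) were divided in these ways. Were the labels given at random, a gene would be divided in either direction with a probability of 0.0571, the smallest p of the exact permutation test. A division alone is therefore weak evidence for any single gene. The median log2 difference over the 7111 genes was -0.023, and 25 genes differed by 1 log2 unit or more, 9 higher and 16 lower. This split depended on scaling: rescaled to nuclear protein-coding genes, the median was -0.14, with 53 genes wholly higher and 514 wholly lower. After quantile normalization the counts were 241 and 409. Divisions named below are those in TPM, without rescaling. Several genes given as wholly higher overlapped when rescaled to nuclear protein-coding genes, such as Slc27a1, Fmo2, Herpud1, Kcnh2 and Adra1a. Of the 7111 genes, 5405 reached 5 TPM in all 7 libraries, 14 were chosen through the VCP TG libraries alone and 43 through WT libraries alone. In genes chosen through 1 group, the choice itself favours a difference, so nothing is read from their division. Among the genes named below these are Atxn3, Phlda1 and Bst2. Vwa3a, Atcay, Cad and Adcy5 reached 5 TPM in all 3 VCP TG libraries but in only 1 WT library, so the rule favoured their division as well. The gene that passed was Igkv2-95-2, an immunoglobulin variable-region pseudogene that is not among the 7111: it was listed at 0 in the 4 WT libraries and at 25.7, 11.5 and 8.68 TPM in VCP TG 1 to 3 (limma adjusted p = 0.00124). It was tested only because it reached 1 TPM in the VCP TG libraries, so its division was fixed by that filter. At 2 weeks after TAC it was present in both groups, with means of 4.602 TPM in WT and 12.9 TPM in VCP TG.

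The 10 genes with the largest differences among those wholly higher in VCP TG were Vwa3a, Atcay, Rplp0, Rbp7, Tnk2, Depp1, Elp4, Slc27a1, Cad and Fmo2, and none of them passed the test. Tnk2, a non-receptor tyrosine kinase also called ACK1, was listed at 5.53, 3.72, 5.03 and 3.76 TPM in WT 1 to 4 and 10.1, 10.1 and 9.86 TPM in VCP TG 1 to 3. The VCP TG libraries lay close together and well above every WT library, with a log2 difference of 1.01 ± 0.18 (limma adjusted p = 0.488). Slc27a1, the fatty acid transport protein FATP1, was listed at 8.62, 8.95, 15.4 and 16.8 TPM in WT 1 to 4 and 23.3, 21.8 and 24.3 TPM in VCP TG 1 to 3. It was lowest in WT 1 and 2, and its log2 difference was 0.90 ± 0.25 (limma adjusted p = 0.904). Vwa3a, a gene with a von Willebrand factor A domain, stood at 2.598 to 6.25 TPM in WT and 7.42 to 10.9 TPM in VCP TG, a log2 difference of 1.15 ± 0.26. Cad, which encodes the enzyme that starts pyrimidine synthesis, stood at 2.52 to 6.66 TPM in WT and 7.18 to 9.59 TPM in VCP TG (0.90 ± 0.26). Fmo2, a flavin-containing monooxygenase, stood at 10.4 to 23.9 TPM in WT and 29.4 to 30.9 TPM in VCP TG (0.89 ± 0.27). In all 3 genes, WT 3 was the WT library nearest to VCP TG. Atcay, which encodes the protein caytaxin, had a log2 difference of 1.10 ± 0.37, Elp4, a subunit of the tRNA-modifying Elongator complex, 0.90 ± 0.27, and Depp1, a target of FOXO transcription factors, 0.91 ± 0.27. The highest Depp1 level, 40.7 TPM, was in the library labelled VCP TG 3, and the other 6 lay between 10.7 and 21.5 TPM. Rplp0, a ribosomal stalk protein, and Rbp7, a retinol-binding protein of endothelium, had differences that rested on WT 4. Rplp0 was at 7.12 TPM there and at 103 TPM or more elsewhere, and its log2 difference went from 1.09 to 0.16 without that library. Rbp7 went from 1.07 to 0.36.

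Among the genes wholly lower in VCP TG, the platelet chemokine Pf4 and the matrix gene Mfap4 had some of the largest differences. Pf4, platelet factor 4, which is also made by resident macrophages, was listed at 20.3, 23.7, 16.5 and 18.1 TPM in WT 1 to 4 and 9.54, 9.33 and 8.403 TPM in VCP TG 1 to 3. Every WT library held at least 16.5 TPM and every VCP TG library less than 10 TPM, a log2 difference of -1.02 ± 0.18 (limma adjusted p = 0.488). Phlda1 was listed at 15.5, 8.48, 5.16 and 6.298 TPM in WT 1 to 4 and 2.65, 2.35 and 4.44 TPM in VCP TG 1 to 3 (log2 difference -1.18 ± 0.33). Every WT library and no VCP TG library reached 5 TPM, so its division followed from the rule that chose the genes. WT 3 and VCP TG 3 were the nearest neighbours across the groups. Mfap4, a microfibril-associated glycoprotein, was listed at 19.9, 31.3, 14.4 and 21.4 TPM in WT 1 to 4 and 12.3, 13.6 and 2.73 TPM in VCP TG 1 to 3 (-1.29 ± 0.48). Its lowest level by far was in VCP TG 3, and without WT 3 and VCP TG 3 the log2 difference was -0.83. Scgb1c1, a secretoglobin, stood at 15.8 to 32.5 TPM in WT and 7.84 to 15.2 TPM in VCP TG (-0.97 ± 0.29), and Rpl22l1, a paralog of the ribosomal protein RPL22, at 19.2 to 40.3 TPM in WT and 11.8 to 17.3 TPM in VCP TG (-0.94 ± 0.26). Rpl29, Rpl34 and Rps18, which encode ribosomal proteins, and Ndrg4, a gene of the NDRG family, were each highest in WT 4. Without that library their log2 differences went from -1.57 to -0.57, from -1.08 to -0.68, from -1.04 to -0.58 and from -1.09 to -0.67.

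The largest difference among the 7111 genes was that of Rnaset2b, a lysosomal ribonuclease with a near-identical copy, Rnaset2a. Rnaset2b was listed at 58.4, 60.5, 33.2 and 57.9 TPM in WT 1 to 4 and 14.2, 15.8 and 8.10 TPM in VCP TG 1 to 3, a log2 difference of -1.97 ± 0.28 and the smallest limma adjusted p of the 7111 genes (0.117). It was under 0.05 only where the 7111 genes were fitted alone (0.0411) or without WT 3 (0.0291). The coding sequences of Rnaset2b and Rnaset2a were the same over all 780 bases, so the split of reads between them is uncertain. Rnaset2a was listed at 40.3, 24.4, 29.1 and 10.1 TPM in WT 1 to 4 and 43.4, 46.3 and 37.4 TPM in VCP TG 1 to 3 and was the more abundant of the pair in every VCP TG library. Its log2 difference was 0.83 ± 0.38, and 0.45 without WT 4. The sum of both genes was 98.7, 84.9, 62.3 and 68.02 against 57.6, 62.03 and 45.5 TPM in the same order, with means of 78.5 ± 16.5 TPM (SD, n = 4) in WT and 55.05 ± 8.55 TPM (SD, n = 3) in VCP TG. On the sum the log2 difference was -0.49 and the groups were divided by less than 1 TPM (exact permutation test, two-sided p = 0.0571, the smallest possible here).

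**Figure D2:**
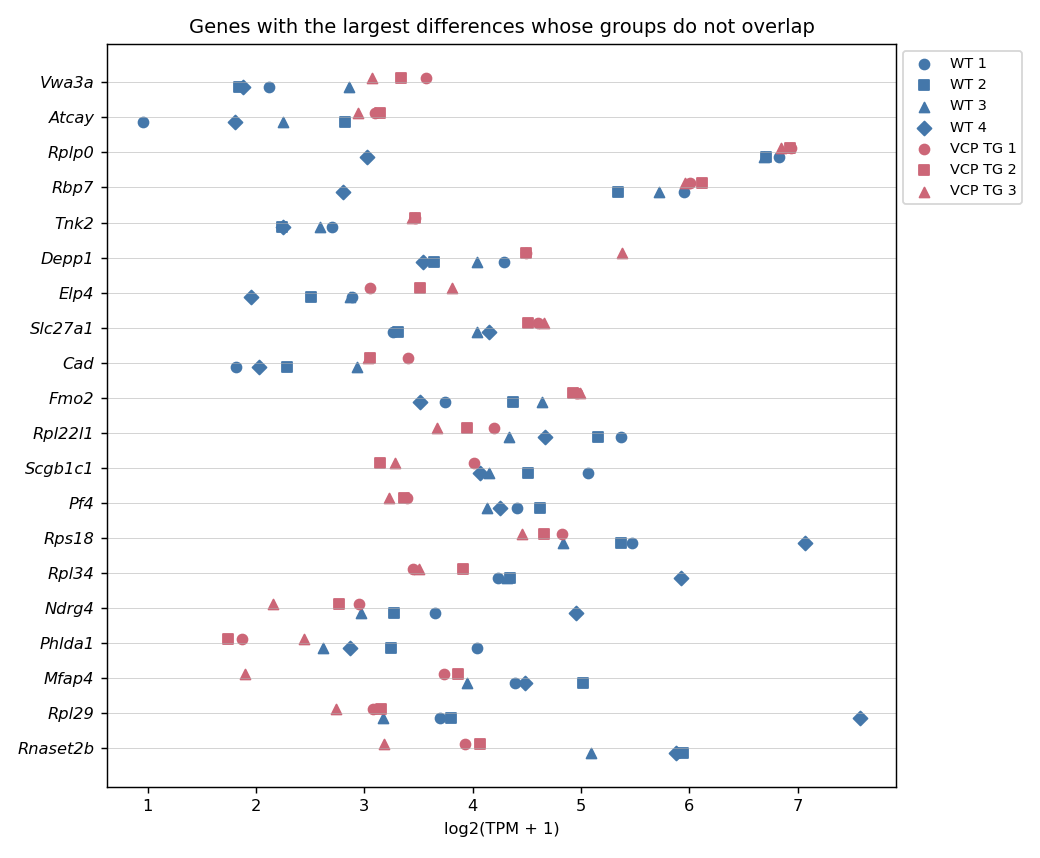
Levels as log2(TPM + 1) of the 10 genes with the largest higher and the 10 with the largest lower differences among genes whose groups do not overlap, 1 point per library, WT in blue and VCP TG in red, marker shapes by replicate number. WT 4 (diamond) lies far from the other WT libraries in Rplp0, Rbp7, Rpl29, Rpl34, Rps18 and Ndrg4, and none of the 20 genes passed the test.

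In the pathway that VCP serves, its partners did not move together. Of 21 adaptors and degradation factors of the endoplasmic reticulum at 5 TPM or more, 10 had a log2 difference above 0 and 11 below, with a median of -0.011. Atxn3, a deubiquitinase that binds VCP, was the 1 member without overlap (4.34, 4.51, 4.71 and 4.04 against 5.89, 5.06 and 5.67 TPM; 0.28 ± 0.16), but it reached 5 TPM in the VCP TG libraries alone, so the rule that chose the genes fixed this. Selenos, which anchors VCP at the membrane of the endoplasmic reticulum, had the largest test statistic of the list, at -0.44 with overlap. The 32 proteasome subunits had a median of -0.19, 25 of them below 0 against 3777 of the 7111 genes, and none was divided. Psmd12, of the regulatory particle, stood at 29.5 to 57.6 TPM in WT and 24.7 to 30.4 TPM in VCP TG, and Psmb1, of the catalytic core, at 38.98 to 76.9 TPM in WT and 26.1 to 43.6 TPM in VCP TG. In both, the 2 highest levels were in WT 1 and 2 and WT 3 and 4 lay near VCP TG. Without WT 3 and VCP TG 3 the median of the subunits was -0.055.

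Most genes of the unfolded protein response had log2 differences below 0, and Herpud1 was wholly higher in TPM. Of 16 genes of the unfolded protein response, 14 had a log2 difference below 0, 5 were wholly lower and 1 wholly higher. Of the 7111 genes, 3777 were below 0, 2.25% wholly lower and 3.12% wholly higher. The list had a median of -0.37 (-0.26 without WT 3 and VCP TG 3), and none of it passed the test. Herpud1, a membrane protein of the degradation complex, was listed at 73.99, 62.5, 91.04 and 55.5 TPM in WT 1 to 4 and 119, 127 and 102 TPM in VCP TG 1 to 3. It was highest in the 3 VCP TG libraries, then in WT 3, with a log2 difference of 0.72 ± 0.22 (limma adjusted p = 0.904). Rescaled to nuclear protein-coding genes, the log2 difference of Herpud1 was 0.60, and VCP TG 1 lay below WT 3, so the groups overlapped. Dnajb9, a co-chaperone of the luminal HSP70, was listed at 35.6, 22.5, 14.7 and 16.9 TPM in WT 1 to 4 and 14.1, 13.6 and 12.02 TPM in VCP TG 1 to 3. WT 1 was the highest and the other WT libraries lay just above VCP TG. The disulfide isomerases Pdia6 and Pdia4 had log2 differences of -0.45 ± 0.19 and -0.44 ± 0.20, and Pdia4 was at -0.30 without WT 3 and VCP TG 3. Cytosolic and mitochondrial heat shock proteins had a median of -0.26, 16 of 19 below 0, and 2 were wholly lower, where 3777 of the 7111 genes were below 0 and 2.25% wholly lower; without WT 4 the median was -0.40. Hspd1, the mitochondrial chaperonin, stood at 44.7 to 70.3 TPM in WT and 38.97 to 43.9 TPM in VCP TG, and the HSP70 family member Hspa4 at 26.2 to 50.3 TPM in WT and 22.6 to 28.6 TPM in VCP TG.

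Genes of protein breakdown outside the proteasome were about evenly spread. The 29 autophagy and lysosome genes had a median of 0.053, with 1 wholly higher and 1 wholly lower, which is near the 3.12% and 2.25% of the 7111 genes. The wholly higher gene was Atg9a, which supplies membrane to forming autophagosomes (7.01, 7.47, 8.23 and 7.88 against 11.04, 10.9 and 8.99 TPM). The wholly lower one was Ctsl, the lysosomal protease cathepsin L (44.9, 39.1, 26.04 and 28.6 against 25.2, 25.99 and 20.1 TPM). Among 12 genes of the muscle atrophy programme, the ligase subunit Fbxo31 was divided, at 11.7, 12.6, 20.2 and 15.8 TPM in WT 1 to 4 and 23.4, 25.8 and 23.9 TPM in VCP TG 1 to 3, a log2 difference of 0.68 ± 0.21. WT 3 was the highest WT library. Foxo3, the transcription factor that drives atrophy genes, stood at 10.4 to 21.6 TPM in WT and 20.9 to 24.9 TPM in VCP TG, overlapping only through WT 3 (0.56 ± 0.24). Of 27 genes of mTOR and growth signalling (median -0.0050), Rptor, a subunit of mTOR complex 1, stood at 9.49 to 12.2 TPM in WT and 13.3 to 14.9 TPM in VCP TG. Lamtor1, of the Ragulator complex that holds mTOR complex 1 at the lysosome, stood at 36.9 to 61.05 TPM in WT and 28.4 to 34.7 TPM in VCP TG, and neither gene passed the test. Pik3r1, a regulatory subunit of PI3 kinase, was at 0.51 ± 0.21 with overlap.

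**Figure D3:**
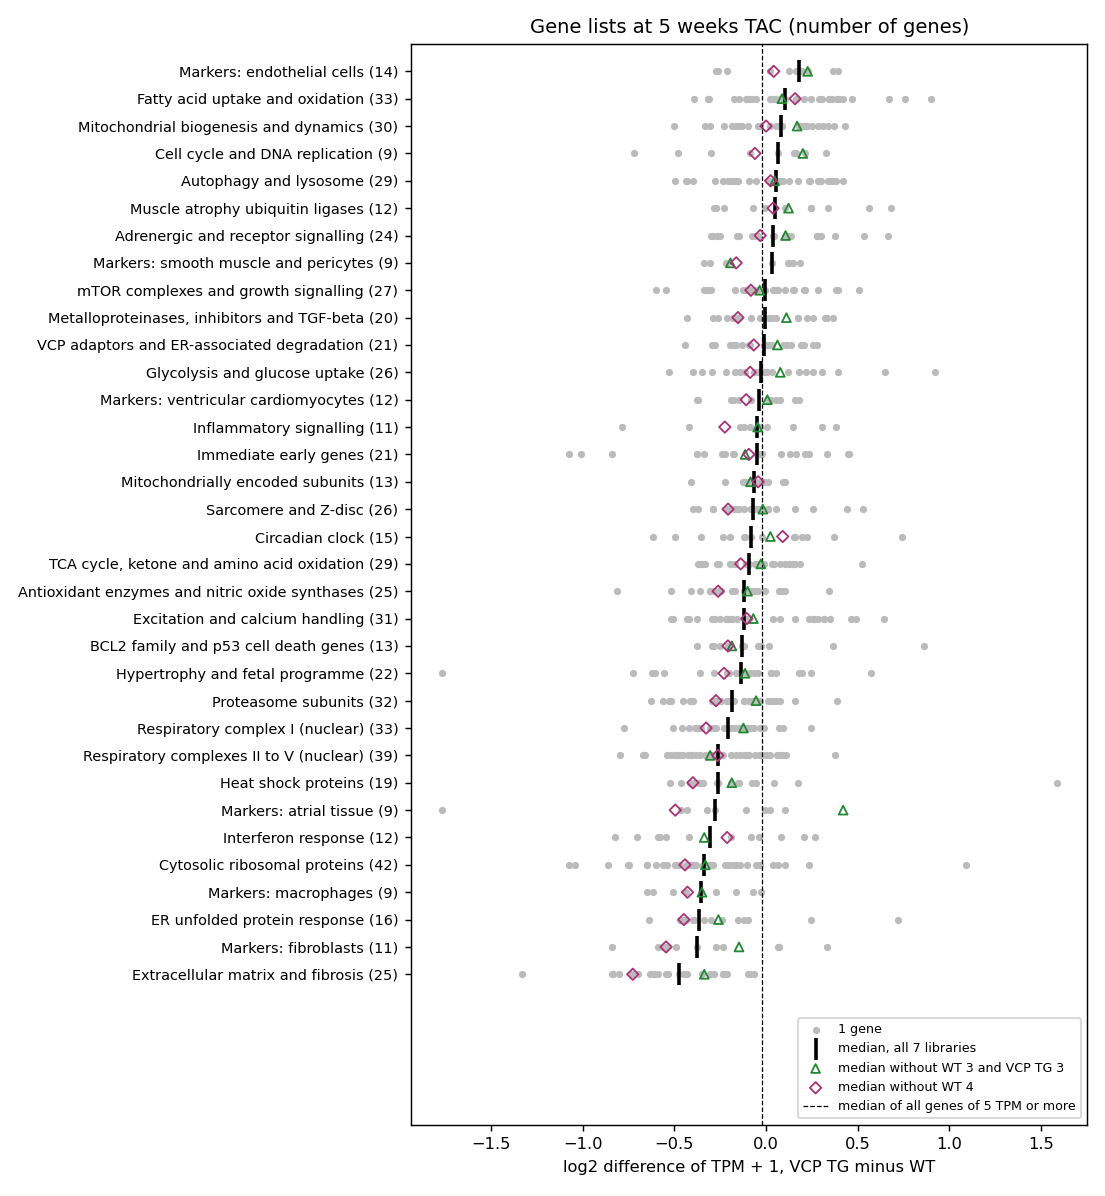
Log2 differences of TPM + 1 (VCP TG minus WT) for gene lists with 9 or more genes of 5 TPM or more, 1 grey point per gene, with the list's median from all 7 libraries (black bar), without WT 3 and VCP TG 3 (green triangle) and without WT 4 (purple diamond); the dashed line is the median of the 7111 genes. The matrix list has the lowest median (-0.47). The atrial list changes sign without WT 3 and VCP TG 3 (from -0.28 to 0.42), as do others, such as the glycolysis list and the smooth muscle list.

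Genes of the load programme overlapped between the groups, and some varied widely between libraries of 1 group. None of 22 hypertrophy and fetal genes was divided (median -0.14). Nppa, the atrial natriuretic peptide, was listed at 235, 376, 106 and 16.5 TPM in WT 1 to 4 and 48.2, 105 and 6.13 TPM in VCP TG 1 to 3. It spanned more than an order of magnitude in both groups, lowest in VCP TG 3 and WT 4, and the log2 difference of -1.77 had a standard error of 1.43. It was -0.68 without WT 3 and VCP TG 3 and -2.67 without WT 4. Nppb, the B-type peptide, was listed at 323, 235, 170.3 and 10.98 TPM in WT 1 to 4 and 61.05, 69.7 and 99.5 TPM in VCP TG 1 to 3 (-0.56 ± 1.22). WT 4 was the lowest, and without it every WT library lay above every VCP TG library, with a log2 difference of -1.63. Acta1, skeletal alpha-actin, was listed at 855, 1452, 910.2 and 62.8 TPM in WT 1 to 4 and 673, 938 and 364 TPM in VCP TG 1 to 3. WT 4 was far below the rest: the log2 difference was 0.24 ± 1.15 with it, -0.76 without it and 0.89 without WT 3 and VCP TG 3. Myh6 and Myh7, the fast and slow myosin heavy chains, stood at 3852 to 4858 TPM in WT and 4535 to 5132 TPM in VCP TG and at 193 to 396 TPM in WT and 253 to 383 TPM in VCP TG. Their log2 differences were 0.18 ± 0.21 and 0.20 ± 0.28, and without WT 3 and VCP TG 3 that of Myh7 was 0.39. Xirp2, an actin-binding protein of the intercalated disc, was highest in WT 1 and 2 (326, 388, 156 and 80.6 against 108, 136 and 119.7 TPM; -0.72 ± 0.49, and -1.16 without WT 4).

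Contractile genes, which supply the highest nuclear mRNAs of the tissue, were close between the groups. The 8 highest nuclear genes were Tnnt2, Myl2, Mb, Myh6, Actc1, Tnni3, Gapdh and Tpm1. Troponins Tnnt2 and Tnni3 had log2 differences of 0.011 ± 0.21 and 0.054 ± 0.20, tropomyosin Tpm1 -0.020 ± 0.21, the myosin light chain Myl2 -0.18 ± 0.22, myoglobin (Mb) -0.19 ± 0.24 and cardiac actin Actc1 -0.37 ± 0.36. Actc1 was 6249, 5041, 2923 and 2286 against 3416, 3377 and 2206 TPM in the 4 WT and 3 VCP TG libraries, so WT 1 and 2 stood above all others, and its log2 difference was -0.62 without WT 4. Of 26 sarcomere and Z-disc genes, 0 were divided. Their median was -0.069, and -0.21 without WT 4, against -0.023 and -0.084 for the 7111 genes. The titin-binding gene Tcap stood at 341 to 1085 TPM in WT and 737 to 1003 TPM in VCP TG (0.53 ± 0.35, and 0.82 without WT 4).

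Membrane and receptor genes were mostly not divided, and none passed the test. Of 31 genes of excitation and calcium handling, 2 were wholly higher and 2 wholly lower (of the 7111 genes, 3.12% and 2.25% were), with a median of -0.12. Kcnh2, the channel of the rapid delayed rectifier current, was listed at 7.73, 8.28, 11.7 and 14.04 TPM in WT 1 to 4 and 17.8, 17.2 and 14.5 TPM in VCP TG 1 to 3, a log2 difference of 0.65 ± 0.22. Kcnj11, the pore of the ATP-sensitive potassium channel, was listed at 13.4, 11.97, 19.7 and 19.7 TPM in WT 1 to 4 and 20.9, 25.4 and 21.9 TPM in VCP TG 1 to 3 (0.49 ± 0.22). In both, WT 1 and 2 were the lowest, and WT 3 and 4 came near VCP TG. Trdn, which anchors the calcium store's release complex, stood at 42.1 to 66.4 TPM in WT and 33.6 to 41.04 TPM in VCP TG (-0.42 ± 0.21). Atp2a2, the calcium pump SERCA2 that refills the store, was at 878 to 1178 TPM in WT and 869.7 to 1004 TPM in VCP TG (-0.16 ± 0.22). Of 24 receptor signalling genes (median 0.039), the 2 that were wholly higher (of the 7111 genes, 3.12% were) were Adra1a, the alpha-1A adrenergic receptor, and Adcy5, a cardiac adenylyl cyclase. Adra1a was listed at 5.91, 6.40, 10.6 and 7.29 TPM in WT 1 to 4 and 13.2, 11.5 and 12.1 TPM in VCP TG 1 to 3 (0.66 ± 0.21), with WT 3 the highest WT library. Adcy5 stood at 4.04 to 6.29 TPM in WT and 7.18 to 8.43 TPM in VCP TG (0.54 ± 0.18).

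Among fatty acid genes, more were wholly higher than wholly lower in VCP TG: of 33, 7 were wholly higher and 0 wholly lower, where 3.12% and 2.25% of the 7111 genes were, and the median was 0.10; none passed the test. Rescaled to nuclear protein-coding genes, this median was -0.020, against -0.14 for the 7111 genes. On that scale 53 of the 7111 genes were wholly higher, and the groups overlapped in Slc27a1, Plin5 and Mlycd. The division of these genes thus depended on scaling. In TPM, the summed level of the list overlapped, at 4735 to 7452 TPM in WT and 5189 to 5369 TPM in VCP TG. Beside Slc27a1, the genes wholly higher in TPM included Plin5, which coats lipid droplets at mitochondria, at 11.8, 10.1, 16.8 and 9.45 TPM in WT 1 to 4 and 17.6, 18.3 and 22.2 TPM in VCP TG 1 to 3 (0.67 ± 0.22). They further included Mlycd, which lowers the inhibitor of fatty acid entry malonyl-CoA, at 11.3, 9.78, 11.99 and 13.7 TPM in WT 1 to 4 and 17.4, 14.5 and 13.9 TPM in VCP TG 1 to 3 (0.36 ± 0.18). The highest WT library was WT 3 for Plin5 and WT 4 for Mlycd. The lipid droplet gene Plin4, read as a fat cell marker, was at 22.7, 30.2, 56.5 and 22.3 against 48.3, 53.7 and 72.95 TPM, while the defining fat cell genes Adipoq and Plin1 were at 0.601 TPM or less in all 7 libraries.

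Most nuclear genes of the respiratory chain had log2 differences below 0, and none passed the test. For complex I, 30 of 33 had a log2 difference below 0 (median -0.21), and for complexes II to V 33 of 39 (median -0.26), where 3777 of the 7111 genes did. The complex I median was -0.12 without WT 3 and VCP TG 3 and -0.33 without WT 4. Almost all of them overlapped: 1 complex I gene was wholly higher, and in the other list 1 was wholly higher and 1 wholly lower (of the 7111 genes, 3.12% and 2.25% were). Cox7c, a small subunit of complex IV, was listed at 1213, 884, 479 and 536 TPM in WT 1 to 4 and 472, 438 and 349 TPM in VCP TG 1 to 3 (-0.80 ± 0.33). The 2 high libraries, WT 1 and 2, carried this difference, and WT 3 stood within 10 TPM of VCP TG 1. Ndufa12 of complex I stood at 196 to 466 TPM in WT and 162 to 227 TPM in VCP TG (-0.77 ± 0.30). Uqcrc1, a core subunit of complex III, went the other way, at 217 to 273 TPM in WT and 298 to 322 TPM in VCP TG (0.38 ± 0.20). Of the 13 mitochondrially encoded genes, mt-Atp8 and mt-Nd4l were wholly lower, at 115220.0 to 156070.0 TPM in WT and 78357 to 111830.0 TPM in VCP TG and at 54536 to 60864 TPM in WT and 47004 to 50447 TPM in VCP TG. The log2 difference of mt-Atp8 was -0.41, and -0.24 without WT 3 and VCP TG 3. In the fuel pathways that feed the chain, Gapdh, a glycolytic enzyme, was wholly lower (4144, 3534, 2639 and 2893 against 2460.4, 2543 and 1822 TPM). Pfkfb1, which makes the activator of phosphofructokinase, was at 3.795, 3.34, 4.63 and 13.4 against 9.69, 10.4 and 13.6 TPM. Bckdha, of branched-chain amino acid oxidation, was wholly higher (29.2, 23.6, 38.7 and 29.1 against 42.7, 45.5 and 41.2 TPM; 0.52 ± 0.20). The antioxidant enzyme Gpx1 was at 20.4 to 53.3 TPM in WT and 14.9 to 26.4 TPM in VCP TG (-0.81 ± 0.33).

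Matrix genes had the lowest median of all lists drawn, and all of them pointed one way. All 25 extracellular matrix genes of 5 TPM or more had a log2 difference below 0, where 3777 of the 7111 genes did, with a median of -0.47. Yet none was wholly lower, and none passed the test. Postn, periostin of activated fibroblasts, was listed at 53.1, 99.7, 34.3 and 27.3 TPM in WT 1 to 4 and 21.04, 33.1 and 8.37 TPM in VCP TG 1 to 3. The highest level was in WT 2 and the lowest in VCP TG 3, VCP TG 2 lay above WT 4, and the log2 difference was -1.33 ± 0.55 (limma adjusted p = 0.904). Col1a1, the main fibrillar collagen chain, was listed at 27.6, 27.2, 13.7 and 19.5 TPM in WT 1 to 4 and 13.2, 17.3 and 6.37 TPM in VCP TG 1 to 3. WT 1 and 2 were again the highest and VCP TG 3 the lowest (-0.84 ± 0.34, -0.66 without WT 3 and VCP TG 3, and -0.46 without VCP TG 3 alone). Col6a1 and the collagen cross-linking enzyme Loxl2 had log2 differences of -0.73 ± 0.27 and -0.64 ± 0.28. Without WT 3 and VCP TG 3 the median of the list was -0.34, and without WT 4 it was -0.73, against 0.066 and -0.084 for the 7111 genes. The fibroblast markers, which include some of these genes, summed to 434 to 950.0 TPM in WT and 385 to 749 TPM in VCP TG and had a median of -0.38 (-0.15 without WT 3 and VCP TG 3); their part in the matrix values was not tested. Tgfbr3, a co-receptor of TGF-beta, was wholly higher, at 14.3 to 16.6 TPM in WT and 18.9 to 21.4 TPM in VCP TG (0.37 ± 0.16).

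Macrophage markers had log2 differences below 0, and genes of the interferon response pointed both ways; none passed the test. All 9 macrophage markers of 5 TPM or more had a log2 difference below 0 (median -0.36, -0.35 without WT 3 and VCP TG 3), where 3777 of the 7111 genes did. The 14 markers listed summed to 131 to 167 TPM in WT and 106 to 120.2 TPM in VCP TG, with no overlap. C1qb, a chain of the first complement component, was listed at 30.9, 28.96, 26.3 and 22.7 TPM in WT 1 to 4 and 18.6, 17.8 and 19.97 TPM in VCP TG 1 to 3 (-0.50 ± 0.18). Lyz2, the lysozyme of myeloid cells, was listed at 57.6, 46.9, 33.7 and 42.6 TPM in WT 1 to 4 and 33.7, 34.7 and 20.01 TPM in VCP TG 1 to 3 (-0.61 ± 0.25), where WT 3 overlapped VCP TG 1 and 2. Csf1r, the receptor for the macrophage growth factor, stood at 4.81 to 8.21 TPM in WT and 3.33 to 5.81 TPM in VCP TG. The sums of these markers moved with Pf4, whose relation to them was not tested. In the interferon list, 9 of 12 were below 0 (3777 of the 7111 genes were) and 1 was wholly lower (2.25% of the 7111 genes were), with a median of -0.31 at 5 weeks and 0.038 at 2 weeks. That 1 gene, Bst2, the antiviral tether tetherin, was at 10.95, 4.55, 5.11 and 9.37 against 3.87, 3.04 and 3.78 TPM and reached 5 TPM in WT libraries alone, so the rule that chose the genes favoured this. B2m, the light chain of class I molecules, was at 398, 324, 194 and 271 against 202, 175 and 199.7 TPM, with overlap. No lymphocyte marker reached the 5 TPM rule, and the marker Cd3e of T cells was at 0.533 TPM or less. Blood differed between libraries: the globin Hbb-bt was at 58.8, 23.3, 6.95 and 89.4 against 14.1, 13.8 and 9.03 TPM (-1.29, and -0.79 without WT 4). Of the endothelial markers, 11 of 14 had log2 differences above 0 (3334 of the 7111 genes did), with a median of 0.18 (0.042 without WT 4). Egfl7 stood at 44.4 to 67.4 TPM in WT and 50.6 to 83.5 TPM in VCP TG.

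**Figure D4:**
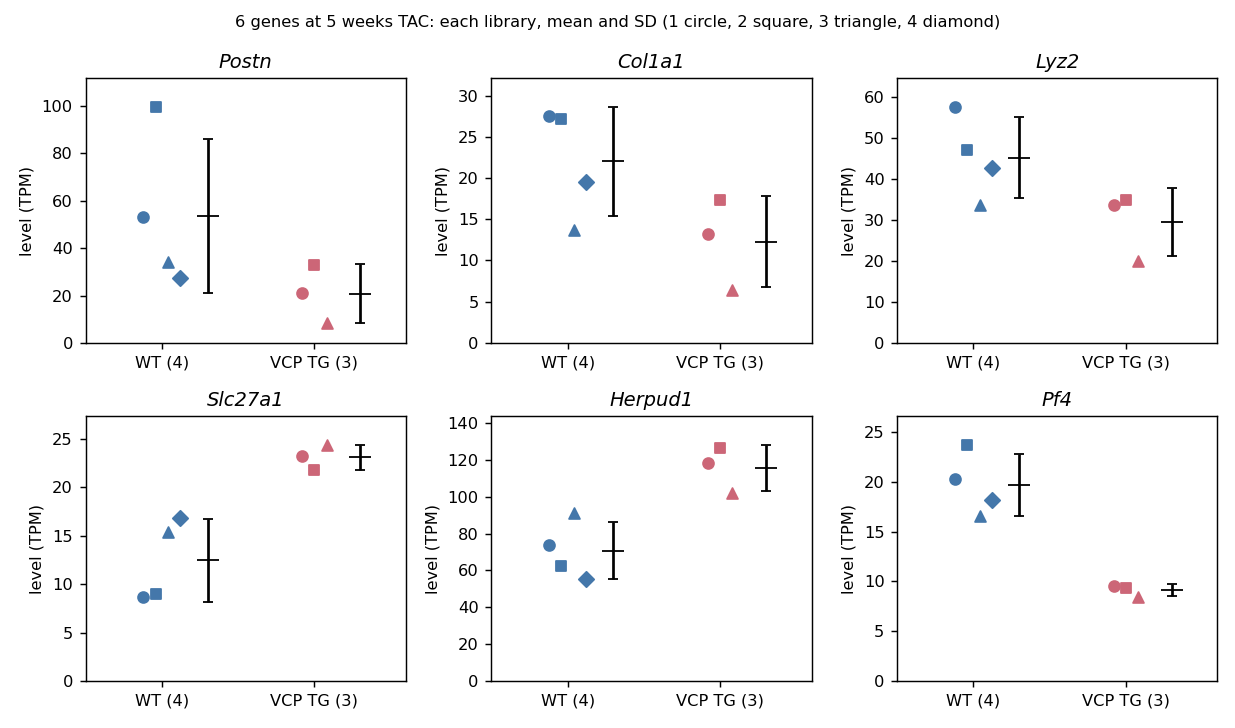
Levels in TPM of Postn, Col1a1, Lyz2, Slc27a1, Herpud1 and Pf4, 1 point per library (circle, square, triangle and diamond for replicates 1 to 4), with the mean and SD of each group beside the points, all axes from 0. The groups overlap in Postn, Col1a1 and Lyz2 and are divided in Slc27a1, Herpud1 and Pf4, with WT 3 (blue triangle) often nearest to VCP TG.

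Most ribosomal protein genes had log2 differences below 0, and none passed the test. Of 42 listed ribosomal protein genes, 37 had a log2 difference below 0 (median -0.34, and -0.045 at 2 weeks), where 3777 of the 7111 genes did. Rpl29 and Rpl34 are not on the list. Of the listed genes, 2 were wholly lower (Rpl3 and Rps18) and 1 wholly higher. The divided counts are near the 2.25% and 3.12% of the 7111 genes. Rpl3 was listed at 18.5, 18.6, 13.7 and 26.7 TPM in WT 1 to 4 and 11.8, 12.4 and 8.60 TPM in VCP TG 1 to 3 (-0.75 ± 0.23). Rps23 stood at 154, 129, 57.8 and 74.6 against 62.5, 64.6 and 56.1 TPM, where WT 1 and 2 again stood apart. Ribosomal protein genes have many processed copies in the genome, so their levels are uncertain. Of the immediate early genes (median -0.049), Atf3 was at 4.49, 11.3, 5.52 and 10.2 against 1.75, 2.04 and 7.65 TPM and Myc at 7.17, 14.95, 19.0 and 6.53 against 2.07, 3.12 and 12.96 TPM: in both, VCP TG 1 and 2 were the lowest and VCP TG 3 lay among WT. The log2 difference of Atf3 was -1.01, and -1.66 without WT 3 and VCP TG 3. The clock genes Bhlhe40 and Per1 were at 24.6, 41.3, 21.6 and 19.02 against 18.4, 16.6 and 14.05 TPM and at 12.01, 41.0, 26.4 and 28.6 against 42.6, 43.9 and 40.1 TPM. Bhlhe40 was wholly lower, and Per1 overlapped by WT 2 alone. Ccnd2, a cyclin of the G1 phase, was at 16.3, 16.4, 9.86 and 17.3 against 9.43, 10.8 and 5.94 TPM, with WT 3 below its group.

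The same contrast 2 weeks after TAC was measured in other libraries. There, 0 of the 7111 genes (0%) passed the test, 332 (4.67%) had an unadjusted p under 0.05, and 14 of all 15540 genes tested (0.0901%) passed. Over the 7111 genes the log2 differences at 5 and 2 weeks had a Pearson correlation of 0.565 across genes, which are not independent replicates, and 67.5% had the same sign. The 2 comparisons share no library but share the genotype, strain, operation and laboratory. In both, the share of mitochondrially encoded mRNAs was lower in every VCP TG library than in every WT library. At 2 weeks it was 55.5 to 60.9% in WT and 40.2 to 51.6% in VCP TG. Its part in the correlation was not tested. Of the 20 genes named above for their size at 5 weeks, 15 had the same sign at 2 weeks. Slc27a1 was at 1.02 ± 0.40 and Atcay at 0.92 ± 0.41 then, while Tnk2 was at 0.080 ± 0.39 and Pf4 at -0.35 ± 0.60. Kcnh2 and Kcnj11 were at 0.61 and 0.68. Vcp itself was at 1.16 ± 0.35 at 2 weeks. In the lists, the median at 2 weeks was 0.28 for fatty acid genes, -0.17 for matrix genes, -0.17 for the unfolded protein response and -0.13 for macrophage markers, against 0.10 for the 7111 genes. Other lists had the opposite sign to that at 5 weeks, such as the proteasome subunits (0.073 at 2 weeks), the interferon genes (0.038) and the endothelial markers (-0.0081). The difference between the 2 times was tested as an interaction over all 22 libraries: 0 of the 7111 genes (0%) passed, 44 (0.619%) had an unadjusted p under 0.05, and 1 of all 16347 genes tested (0.00612%) passed.

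**Figure D5:**
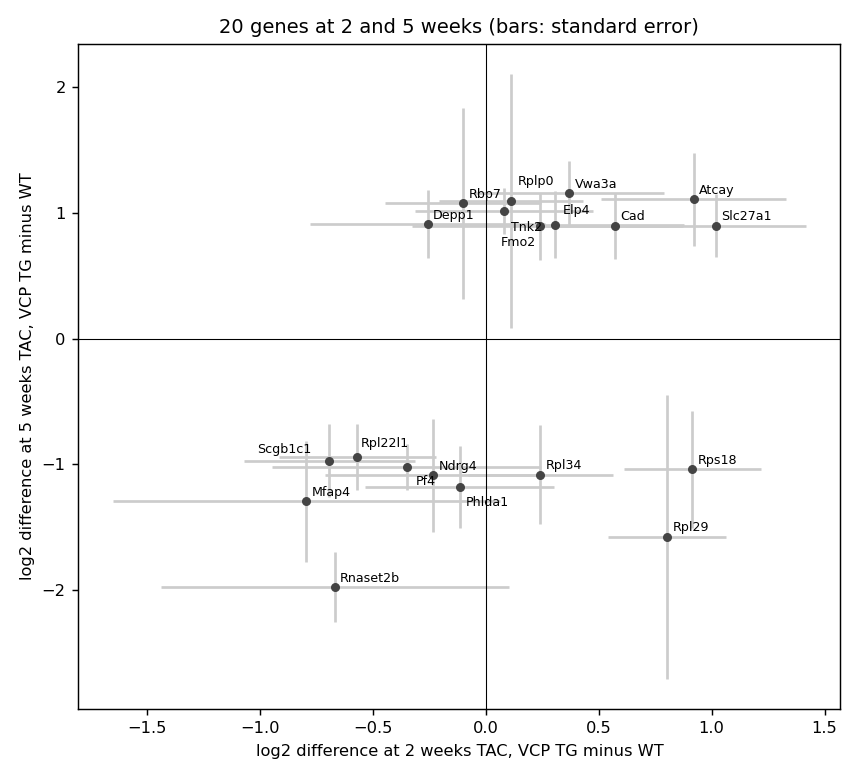
Log2 differences of TPM + 1 (VCP TG minus WT) at 2 weeks (horizontal) and 5 weeks (vertical) after TAC for the 20 genes with the largest differences at 5 weeks among those without overlap, with standard errors as bars. Of the 20 points, 15 lie in the quadrants of equal sign; Rpl29, Rps18, Rpl34, Rbp7 and Depp1 do not.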

How the data were processed

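RNA-seq libraries of mouse left ventricle were read from the authors' deposited 5-week table, which gives TPM per gene and sums to 1000000 in each of the 7 libraries. Per the submitters' processing notes, Trimmomatic 0.35, kallisto 0.43.1, STAR 2.5.4b and build GRCm38 were used; which tool made the table was not stated. Depth cannot be read from TPM, so counting error is unknown. Identifiers were matched to GENCODE M21 (29995 of 30735). Genes of 1 TPM or more in 3 or more libraries (13986) were tested on log2(TPM + 1) with limma 3.58.1 (R 4.3.3; trend, robust, two-sided), adjusted by Benjamini-Hochberg over all of them and a threshold of 0.05; differences on this scale understate changes of low genes. The fit was tested on simulated data. The 2-week libraries were fitted apart, and the interaction over all 22.

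Genes and 42 gene lists were chosen with earlier results of these data known. Named genes are Vcp, 7 load genes, the 10 largest differences without overlap in each direction, up to 4 genes per list with the largest test statistics, and the 8 highest nuclear genes. Alternatives were other pseudocounts, filters, scalings, covariates, a replicate block and left-out libraries. Some genes within these rules are not reported here.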

Additional observations from a re-analysis of the deposited data

Results flagged for a closer look

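Within the 4 WT libraries, 96 values were searched for a library far from the other 3 (Dixon's test), which chance alone flags in about 1 of 20 groups. WT 4 was far below the others in Acta1 (62.8 TPM), Rplp0 (7.12 TPM), Uty (3.66 TPM), Eif2s3y (1.43 TPM) and Ddx3y (0.192 TPM). It was far above them in Rpl29 (190.2 TPM) and Rpl34 (59.6 TPM). WT 3 was far below the others in Rnaset2b (33.2 TPM) and Ccnd2 (9.86 TPM), and far above them in the pseudogene Vcp-rs (105 TPM).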

How the results depend on the processing

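No gene of the 7111 passed the test in all 7 libraries; 1 did, Rnaset2b, when only those genes were fitted or without WT 3, and with 1 library left out in turn the number ranged from 0 to 1. Over all genes tested, 1 passed; with 1 library left out it ranged from 0 to 3. It was 0 with a pseudocount of 5, with a replicate block, with the mitochondrial share as covariate, with 6 groups fitted together, without the 3 libraries whose Vcp goes against the label (WT 2, WT 3 and VCP TG 3), and, chosen after seeing the data, without WT 3 and VCP TG 3 or without these and WT 4. Igkv2-95-2 then had log2 differences of 1.93, 3.89, 4.34 and 3.89 in the first 4 of these. In the last 3, which leave out VCP TG 3, it reached 1 TPM in too few libraries and was not tested.

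The counts of genes whose groups do not overlap, 222 higher and 160 lower, became 53 and 514 when rescaled to nuclear protein-coding genes, and 241 and 409 after quantile normalization. With 1 library left out they ranged from 282 to 935 higher and from 174 to 753 lower; the extremes were without VCP TG 3 (935 and 215) and without WT 4 (282 and 753). Fewer libraries divide more genes by construction. Without WT 2, WT 3 and VCP TG 3 they were 1895 and 648, without WT 3 and VCP TG 3 they were 1361 and 505, and without WT 3, WT 4 and VCP TG 3 they were 1579 and 2317.

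No replicate numbers are known to pair the libraries. The deviations of same-numbered WT and VCP TG libraries from their group means correlated at 0.0425, -0.145 and 0.252, so the numbers were not taken as pairs. With the replicate block, 0 genes passed and 1010 of the 7111 had an unadjusted p under 0.05, against 304; the block leaves WT 4 without a partner, and its median difference over the 7111 genes was -0.084, as without WT 4.

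For Vcp, the log2 difference was -0.12 when rescaled and -0.23 with the replicate block. It was -0.14 with the level of olfactory and vomeronasal receptor genes as covariate, and it ranged from -0.28 to 0.51 with 1 library left out. Of 95 single genes, 38 changed sign under at least 1 alternative, 30 of them only with the mitochondrial share as covariate, which separates the groups completely and so cannot be told apart from genotype. With that covariate the log2 differences were Myh7 -0.069, Acta1 -0.77, Atp2a2 0.35, Col1a1 0.43, Atcay -0.17, Rplp0 -0.34, Fmo2 -0.014, Rpl29 0.55, Mfap4 0.21, Ndrg4 0.55, Rps18 0.11, Myl2 0.22, Mb 0.34, Actc1 0.13, Tpm1 0.23, Gapdh 0.053, Selenos 0.27, Psmb1 0.14, Pdia4 0.034, Hspd1 0.15, Ndufa12 0.15, mt-Atp8 0.21, Gpx1 0.13, Col6a1 0.44, Per1 -0.26, Bst2 0.027, Ccnd2 0.19, Rpl3 0.013, Lyz2 0.35, Csf1r 0.22, Hbb-bt 1.33, Plin4 -0.21, Eif2s3y -0.26 and Ddx3y -0.75. Signs also turned with array weights (Acta1 -0.032 and Tpm1 0.045), quantile normalization (Tnni3 -0.026), rescaling (Tnnt2 -0.11 and Tnni3 -0.070), the receptor covariate (Tpm1 0.038) and the replicate block (Acta1 -0.76, Tpm1 0.024, Eif2s3y -0.28 and Ddx3y -0.36). With 1 library left out, signs turned in 5 genes: Acta1 ranged from -0.76 to 0.74, Tnnt2 from -0.037 to 0.064, Tpm1 from -0.072 to 0.033, Eif2s3y from -0.28 to 0.83 and Ddx3y from -0.36 to 0.99. The same happened without WT 2, WT 3 and VCP TG 3 (Nppa 0.17, Nppb 0.088 and Tpm1 0.026), without WT 3 and VCP TG 3 (Tpm1 0.079) and without these and WT 4 (Acta1 -0.49, Tpm1 0.17, Eif2s3y -0.22 and Ddx3y -0.45). The cause was not tested.

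At 2 weeks, 14 genes passed, 18 without trend or robust moderation and 10 without WT 1, an alternative chosen after seeing the data. The interaction passed in 1 gene, and in 0 without WT 3 and VCP TG 3 at 5 weeks and WT 1 at 2 weeks, also chosen after seeing the data. TPM values keep no counting depth, so the precision of low genes is unknown.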
